A study of Mus musculus with 4 samples.

Results

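The genes described are mouse transcripts that still carried a RIKEN clone name from a testis cDNA library, with a symbol that ends in Rik and opens with the library number of 1700097N02Rik, 4930502E18Rik or 4933438K21Rik, and whose signal in embryonic stem (ES) cells stood above background. The parts held of the study's gene tables pair 5619 symbols with probes of the array, which is 22.4% of the 25030 genes that have a deposited value, and 983 of those symbols come from these libraries. Of these, 442 (45.0%) were called well above background by the scanner software in the ES cell channel on all 4 arrays, and these 442 are the testis-library RIKEN genes described here. They were thus chosen by measured values, and their level in ES cells is a description with no test. The gene tables are held only in part and run mostly in order of name, so the 983 are not every such symbol on the array.

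The RIKEN mouse encyclopedia project sequenced full-length cDNA clones from many tissues and named each clone after its library, so a transcript without a known function kept the name of the clone in which it was first seen. Round spermatids and spermatocytes transcribe an unusually large part of the genome, so testis libraries gave many such clones, both of protein-coding genes of meiosis, sperm head and flagellum and of noncoding RNAs. ES cells, too, transcribe part of the germ-line program, and FGF receptor, MEK and GSK-3 are kinases whose inhibition is known to favour the undifferentiated state, GSK-3 because it marks beta-catenin for destruction.

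The study grew B6R(5) ES cells, a C57BL/6 line given as male, on gelatin without feeder cells, and hybridized total RNA labelled with Cy3 to 4 two-colour Agilent arrays of NIA 60-base probes, against a Cy5-labelled reference that the labels give as a pool of 11 mouse cell lines, among them a line from testis. For its organ arrays the study names a reference to which RNA of MC1 cells, a mouse ES line, had also been added, and for the inhibitor experiment it says only that RNA was handled as already described, so ES cell RNA in the reference cannot be left out of account in any ratio below. The question was how inhibitors that support pluripotency change expression. Each condition had 1 array. The control culture received DMSO alone, and the other cultures received the FGF receptor inhibitor PD173074 at 100 µM, the MEK inhibitor PD98059 at 25 µM or the GSK-3 inhibitor BIO at 2 µM, in each case from 24 h after plating and for 48 h, with 0.2% DMSO in all cultures. Those doses are from the study's methods, and another listing of the study prints the same numbers in mM. All 3 comparisons use the same control array and none has a replicate, so no test of a difference was possible, and precision is limited by having so few arrays. A lower signal from fewer cells of a kind and one from less RNA per cell cannot be told apart in these cultures.

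The level of a gene is given below as the log2 ratio of its ES cell signal to its reference signal on the same spot, after background correction and normalization within each array, and a change as the difference of that ratio between an inhibitor array and the DMSO array. Signals of different probes are not compared as abundances, because probes differ in how well they bind. Processed Cy3 and Cy5 signals are the scanner software's own values in fluorescence units.

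Passing the filter was less frequent for testis-library symbols than for other symbols. Of the other symbols that end in Rik, 1234 of 1739 (71.0%) passed it, and of the conventionally named symbols 2568 of 2897 (88.6%) did. Over all 25030 genes, 16229 (64.8%) passed. For its estimates of responsiveness the study kept only genes measured accurately enough and with a known start site. Symbols drawn from those lists were thus preselected, and the share over all 25030 genes is not a like background for them. Among the testis libraries the share was 225 of 540 (41.7%) for the library of 1700097N02Rik, 161 of 335 (48.1%) for that of 4930502E18Rik and 56 of 108 (51.9%) for that of 4933438K21Rik. Of the 541 symbols left out, 391 were above background on no array, 71 on 1 array, 34 on 2 arrays and 45 on 3 arrays. By array, the symbols above background numbered 507 with DMSO, 516 with the FGFR inhibitor, 532 with the MEK inhibitor and 487 with the GSK inhibitor. Among the symbols above background on 3 arrays, 22 missed it on the GSK inhibitor array alone, 10 on the DMSO array, 10 on the FGFR inhibitor array and 3 on the MEK inhibitor array.

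At the edge of the filter, the members just inside it were 1700029I15Rik, Izumo3 (1700011H22Rik), of a family of sperm surface proteins, and Mgat4f (4933406M09Rik). Their smallest Cy3 signal over background, in units of the SD of the background, was 1.02, 1.10 and 1.12. Just outside lay 4930428O21Rik with 1.54, 1700008F19Rik with 1.46 and Stpg1 (4930555I21Rik), a gene of sperm-tail repeats, with 1.38, each above background on 3 arrays. The order by this measure is thus not the order by the software's own flag. Izumo3 had log2 ratios of 0.30 with DMSO, 0.33 with the FGFR inhibitor, 0.24 with the MEK inhibitor and 0.44 with the GSK inhibitor, and Stpg1 had 0.31, 0.20, 0.32 and 0.12, both with a Cy5 signal at background, so these ratios are set by the offset.

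Most of the testis-library RIKEN genes that passed lay close to the reference pool. On the DMSO array the median log2 ratio was 0.04, with quartiles of -0.36 and 0.41, where median centring in place of the normalization used here gave -0.26. The other Rik symbols had a median of -0.01 with wider quartiles of -0.75 and 0.59, and all genes had a median of 0.06 with quartiles of -0.74 and 0.77. The ES cell signal was at least 2-fold above the reference for 48 members (10.9%) and at least 2-fold below it for 59 (13.3%), against 198 and 252 of the 1234 other Rik symbols. On all 4 arrays 41 members (9.28%) kept to the side at least 2-fold above the reference and 53 (12.0%) to the side at least 2-fold below, against 12.1% and 16.9% of the other Rik symbols and 15.6% and 17.6% of all genes. The members' probes were dim, with a median processed Cy3 signal of 165 on the DMSO array, against 971 over the probes of the other Rik symbols and 1214 over all genes. Among the 111 members with the lowest Cy3 signal, the quartiles of the log2 ratio were -0.22 and 0.16. Among the 111 with the highest they were -0.47 and 1.02, around a median of 0.35. The ratios of the dim members thus spread less than those of the bright ones, and the part of the background offset in this was not tested.

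**Figure D1:**
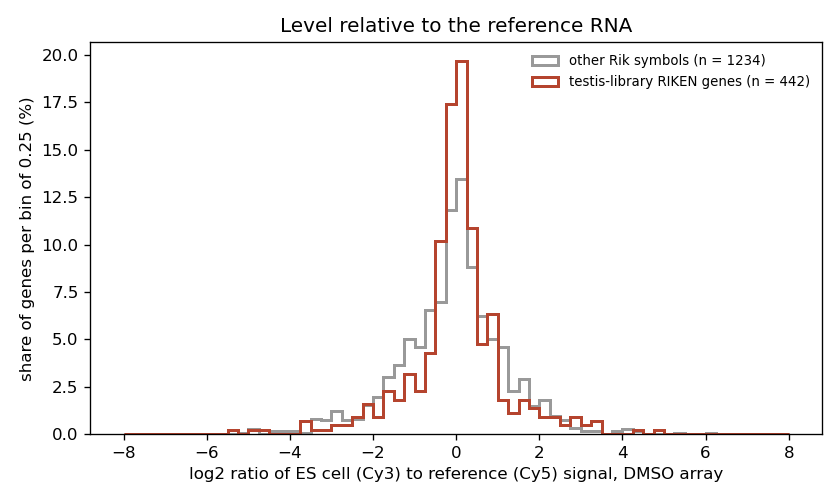
Distribution of the log2 ratio of ES cell (Cy3) to reference (Cy5) signal on the DMSO array, as the share of genes in bins of 0.25, for the 442 testis-library RIKEN genes (red) and the 1234 other Rik symbols that passed the same filter (grey). The testis-library genes are gathered around 0, with quartiles of -0.36 and 0.41, and the other Rik symbols spread wider, with quartiles of -0.75 and 0.59. The lists are not matched for signal, with a median processed Cy3 of 165 and 971, and the part of the background offset was not tested.

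The reference channel held a signal for most members as well. For 398 members (90.0%) the Cy5 signal, too, was called well above background throughout, and for 26 (5.88%) on no array, against 2.51% among other Rik symbols and 2.93% among all genes. Those 26 had a median log2 ratio of 0.56 with DMSO, and 6 of them were at least 2-fold above the reference. They include Izumo2 and Izumo3, the meiotic telomere protein Majin, the germ-cell homeobox gene Rhox13 and the cilium gene Pifo. For such genes the reference stood at background, so the size of the ratio depends on the offset and on the normalization.

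The members with the highest mean ratio over the 4 arrays were 1700019D03Rik, 1700029P11Rik, Efcab10 (4930504H06Rik), 1700007K13Rik and Noxred1 (4933437F05Rik). All 5 are annotated as protein coding. 1700019D03Rik had log2 ratios of 4.87 with DMSO, 5.00 with the FGFR inhibitor, 4.92 with the MEK inhibitor and 4.54 with the GSK inhibitor, and its processed Cy3 signal on the DMSO array was 23303 against a Cy5 signal of 582. 1700029P11Rik had 4.47, 4.46, 4.09 and 4.00 in the same order, and 1700007K13Rik 3.37, 3.55, 3.42 and 3.55. These genes were far above the reference pool whichever inhibitor was present. Noxred1, which encodes a predicted oxidoreductase, had 3.25, 3.78, 3.25 and 3.61. Efcab10, a gene of the EF-hand calcium-binding kind, had a Cy5 signal at background on every array, so the offset sets the size of its ratio and its place in this order, and it is described with the GSK inhibitor.

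At the other end stood genes whose ratio was far below the reference. Prss52 (1700049K14Rik), a serine protease of the testis, had log2 ratios of -5.38, -5.60, -5.74 and -5.56 on the DMSO, FGFR, MEK and GSK arrays, with a DMSO Cy3 signal of 362 and a Cy5 signal of 20566. 1700015O11Rik had -4.83, -5.28, -5.36 and -5.30, while its Cy5 signal was 8312, 10488, 12104 and 13405 on those arrays. From Cy3 alone its changes with the FGFR, MEK and GSK inhibitors were -0.07, 0.06 and 0.19. Tent5c (4930431B09Rik), a noncanonical poly(A) polymerase that stabilizes mRNAs in plasma cells, had -4.72, -4.87, -4.74 and -4.62. Per the labels the pool holds a testis line and lymphocyte lines, and which of its lines supplied these RNAs was not tested. By the mean over the 4 arrays, 1700003F12Rik at -3.70 and 4930523C07Rik at -3.66 came next.

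The prefix names a clone library and not the place where a gene is used, and the current annotation says what kind of gene each is. Of the 442 members, 389 (88.0%) matched 1 gene of the current RefSeq annotation, and 180 of these now carry another symbol. Protein-coding genes made up 239 (61.4% of those matched), long noncoding RNAs 135 (34.7%) and pseudogenes 14. Among the 541 testis-library symbols that did not pass, 157 were protein coding (36.5% of those matched) and 260 noncoding (60.5%), and among the other Rik symbols that passed 79.8% were protein coding and 18.7% noncoding. Passing members were therefore richer in protein-coding genes than the symbols left out, and poorer in them than the other Rik symbols. Noncoding members had a median log2 ratio of -0.02 and a median processed Cy3 signal of 103 with DMSO, and protein-coding members had 0.08 and 300. The X chromosome held 17 members (4.37% of those matched), against 4.65% of the symbols left out and 3.1% of the other Rik symbols. The members' probes had a median GC content of 45.0%, against 43.3% for the symbols left out and for the other Rik symbols.

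Promoters gave a similar order. RefSeq promoter windows, from 250 bases before to 50 bases after an annotated start, exist for 196 of the 239 protein-coding members (82.0%), 131 of the 157 protein-coding symbols left out (83.4%) and 735 of the 876 protein-coding other Rik symbols (83.9%). The median number of CpG dinucleotides per window was 11.2 for the members, 4.0 for those left out and 20 for the other Rik symbols. The median GC content of the members' windows was 55.3%. Over all 442 members the same count is void, since 68.6% have a window.

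Renamed members whose role is well known include genes of the germ line and genes of ordinary cell functions. The grouping below used the current symbols, was made by hand after the values were seen and leaves out most members. The number of each group that passed comes from the filter that chose the members, and stands beside 45.0% of all testis-library symbols and 239 of 396 of the protein-coding ones, so nothing is read from it. Of the meiosis genes 5 of 6 passed. Syce3 (1700007E06Rik), a central element protein of the synaptonemal complex that pairs homologous chromosomes, stood at 2.90 with DMSO, 2.53 with the FGFR inhibitor, 2.63 with the MEK inhibitor and 2.32 with the GSK inhibitor. Mei4 (4930486G11Rik), which acts in making meiotic DNA breaks, had 1.04, 0.77, 1.15 and 0.81, with Cy5 above background on 1 array. Meiob (4930528F23Rik), a single-strand DNA-binding protein of meiotic recombination, was lower than the reference at -2.15, -2.34, -2.39 and -2.31. Majin had 0.32 with DMSO at a Cy3 signal of 63.5 and a Cy5 signal at background, so the offset sets that ratio, and Syce1l had 0.13.

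Of the genes of the sperm head, sperm membrane and fertilization 7 of 8 passed, again beside 239 of 396 protein-coding testis-library symbols. Catsperz (1700019N12Rik), an accessory protein of the sperm calcium channel CatSper, was among the members farthest above the reference, with 3.38 on the DMSO array and 3.00, 3.13 and 2.82 on the FGFR, MEK and GSK arrays. Its processed Cy3 signal with DMSO was 4981. Spaca9 (1700026L06Rik), a protein of sperm and cilia microtubules, had -2.60, -2.69, -2.48 and -2.24. Spaca6, which sperm need to fuse with the egg, had -0.56 with DMSO at a Cy3 signal of 47.6, and Eqtn and Llcfc1 were as dim, with Cy3 signals of 40.4 and 49.0. So the group held a gene far above the reference beside several close to background.

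Of the flagellum and cilium genes 10 of 18 passed, close to the share of 239 of 396, and most lay near the reference. Ift43 (1700019E19Rik), a subunit of the intraflagellar transport complex used by primary cilia of most cells, had a Cy3 signal of 6502 with DMSO and stood at -2.09. Cfap126 had 0.86 and Cfap20dc 0.54 with DMSO, at Cy3 signals of 2008 and 1462. Cfap206 had a Cy3 signal of 38.9 with DMSO. Of the spermatid histone genes, 2 of 5 passed, H2al1m at -0.17 and H2al2a at -0.07 with DMSO. The Spata and Tex genes, named after their expression in testis and mostly without a known biochemical role, passed in 10 of 22 cases, with a median of -0.04. Spata31d1a (1700013B16Rik) was the only one of them at least 2-fold above the reference on the DMSO array, at 1.89, and had 1.93, 2.35 and 1.5 with the FGFR, MEK and GSK inhibitors. On the DMSO array 2 of them, Spata31 at -1.30 and Tex26 at -1.39, were at least 2-fold below the reference. Of the testis serine proteases 3 of 5 passed, Prss44 at 0.62, Prss37 at -0.90 and Prss52 at the bottom of the set.

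All 5 regulators of the germ line in the hand-made list passed, a list too short to set against the 239 of 396. Pld6 (4933433K01Rik), the mitochondrial endonuclease that makes piRNAs which silence transposons, had log2 ratios of 2.42, 2.43, 2.60 and 2.50 on the DMSO, FGFR, MEK and GSK arrays. Rhox13 (1700123J19Rik) had 0.96, 0.87, 1.02 and 1.18, and Taf7l2 (4933416C03Rik), a relative of the basal transcription factor subunit TAF7, had 0.75, 0.91, 1.11 and 0.79. Neither differed by 1.5-fold between any inhibitor and DMSO. The Cy5 signal of Rhox13 was above background on no array and that of Taf7l2 on 2, so the size of their ratios depends on the offset. Brd8dc lay at 0.08 with DMSO. Ct55 had ratios near 0 at signals close to background except with the GSK inhibitor, and is described with it.

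Other renamed members belong to functions that all cells use, and most of these gave signals well clear of background. The 7 mitochondrial genes had a median processed Cy3 signal of 4192 with DMSO, and the 8 genes of transcription, chromatin and DNA repair had 1298. The medians cover dim members too, with Fam210a at 104 and Lrif1 at 103, and the transcription factor Ovol2 (1700108N11Rik) at 35.2 lay at the edge of the filter. Kansl1 (1700081L11Rik), a scaffold of a histone acetyltransferase complex, was among the 3 members that differed least between arrays within the 111 of highest Cy3 signal, with 2.20, 2.25, 2.23 and 2.22. The others were Armc12 (4930511I11Rik), a protein of the mitochondrial sheath of sperm, with -0.36, -0.35, -0.32 and -0.34, and 4930432M17Rik with -0.34, -0.34, -0.29 and -0.31. Kdm6b (1700064E03Rik), a demethylase of histone H3 lysine 27, stood at 1.77 with DMSO, Ints13 at 0.89 and the mitochondrial fission protein Mtfp1 (1700020C11Rik) at 1.78. The 7 genes of the secretory pathway and membranes had a median of -1.03, with Erlec1, a lectin of the endoplasmic reticulum, at -2.40 and the heme transporter Slc48a1 at -2.20.

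A pair of members are noncoding RNAs known from ES cells. Platr14 (4930500J02Rik), of the pluripotency-associated transcripts, had 2.45, 2.66, 2.40 and 2.32 on the DMSO, FGFR, MEK and GSK arrays. Oip5os1 (1700020I14Rik), the mouse Cyrano RNA, lay below the reference at -1.71, -1.77, -1.61 and -2.27, with a DMSO Cy3 signal of 6940 against a Cy5 signal of 21902. Of the 26 testis-library genes now named as antisense or opposite-strand RNAs, 11 passed, beside 135 of 395 of all noncoding testis-library symbols, with a median of -0.14. After the background offset 0 of the 11 were past 1.5-fold with any inhibitor, which says little where at most 3.58% of all genes passed it in a direction. Sp3os (1700011J10Rik) came nearest, with -0.50 on the DMSO array and 0.07 on the GSK array, and its log2 fold change of 0.58 was 0.64 from Cy3 alone and 0.66 from the processed signals, past 1.5-fold. In the processed signals Kcnmb4os2 had 1.22 with the GSK inhibitor, and Pip5k1bos had -0.81 and Bloc1s6os -0.70 with the MEK inhibitor.

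Defining markers could be read for few cell types, because the parts held of the tables pair few of them with probes. None of 15 ES cell markers, 2 of 20 germ cell markers, none of 6 markers of somatic testis cells and 1 of 6 fibroblast markers had a pairing. Mael, a piRNA pathway gene of germ cells, stood at 3.03, 2.72, 3.05 and 2.35 on the DMSO, FGFR, MEK and GSK arrays. Tnp1, the transition protein of spermatids, had 0.08, 0.03, 0.01 and -0.03. Its Cy3 and Cy5 signals with DMSO were 60.9 and 50.8, both close to background. The offset holds such a ratio near 0, so no level is read from it. The fibroblast collagen Col3a1 was far below the reference on every array, at -7.19, -7.34, -7.44 and -7.26. The label ES cells could therefore not be checked on the arrays with these markers.

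With the FGFR inhibitor no member passed 2-fold after the background offset, while processed signals put 7 higher and 11 lower, 4.07% in all against 2.92% of other Rik symbols and 4.07% of all genes. The count with the offset was 0 of 442 higher and 0 lower, where 0.891% of the 1234 other Rik symbols were 2-fold higher and 0.162% lower, and 0.82% of 16226 genes were higher and 0.61% lower. Past 1.5-fold, 6 members were higher (1.36%) and 4 lower (0.905%), against 2.35% higher and 2.03% lower among other Rik symbols and 2.85% and 3.01% among all genes. The members' median log2 fold change was 0.00, and single members ran from -0.78 to 0.87. As a yardstick for single genes, the robust SD of log2 fold changes among genes of like Cy3 signal had a median of 0.19 over the members, against 0.22 for all genes.

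Those above 1.5-fold with the FGFR inhibitor were Lrriq4, 1700018G05Rik, Izumo2, 1700042O10Rik, Rsph9 and Rfx8. Of these Lrriq4 has the opposite sign in the ratio of processed signals, at -0.03. Others fell short of 1.5-fold in some settings, Izumo2 with 0.13 from processed signals and 0.47 from Cy3 alone, 1700018G05Rik with 0.41 and 0.56, and Rsph9 and Rfx8 with 0.57 and 0.42 from Cy3 alone. Under median centring these 4 had 0.53, 0.56, 0.50 and 0.47, also short of it. 1700042O10Rik, a noncoding RNA, had log2 ratios of 0.76 with DMSO, 1.45 with the FGFR inhibitor, 0.81 with the MEK inhibitor and 1.15 with the GSK inhibitor, and its Cy3 signal was 1117 with DMSO and 2119 with the FGFR inhibitor while Cy5 was 530 and 599. Its log2 fold change was 0.69 against a robust SD of 0.24. Rsph9 (1700027N10Rik), a radial spoke protein of motile cilia and sperm tails, had 0.06, 0.73, 0.16 and 0.27, and so stood apart on the FGFR array, at Cy3 signals of 87.8, 236, 131 and 128. Izumo2 (1700023D19Rik) had 1.04, 1.74, 1.33 and 0.54, highest with the FGFR inhibitor and lowest with the GSK inhibitor, at Cy3 signals of 179, 343, 225 and 89.7 and a Cy5 signal at background. 1700018G05Rik, a noncoding RNA, had 1.26, 1.97, 1.69 and 1.71. Rfx8 (4933400N17Rik), of the RFX family of transcription factors, had -0.26, 0.32, -0.24 and -0.31 and was near background on the DMSO array, with a Cy3 signal of 44.8, and the processed signals gave it a log2 fold change of 1.60.

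Lrriq4 (4930558O21Rik), a gene of leucine-rich and IQ repeats, was the member farthest above DMSO with the FGFR inhibitor and also with the MEK inhibitor. For this gene the direction turns in the ratio of the software's processed signals, although not in processed Cy3. Its log2 ratio was 1.54 with DMSO, 2.41 with the FGFR inhibitor, 2.34 with the MEK inhibitor and 2.21 with the GSK inhibitor, so the DMSO array was the low one. Its processed Cy3 signal was 283 with DMSO and 604, 653 and 607 with the inhibitors. The log2 fold changes were 0.87, 0.80 and 0.67, where the processed signals give -0.03, -0.67 and -0.22. The Cy5 signal was above background on no array and moved from 3.82 with DMSO to 8.34, 14 and 9.51 with the inhibitors, and the processed ratio divides by it. From Cy3 alone the fold changes were 0.61, 0.60 and 0.65. Because the 3 comparisons share the DMSO array, that single low value enters all of them.

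Below 1.5-fold with the FGFR inhibitor lay 1700025H01Rik, 4930509E16Rik, Them6 and 1700029J07Rik. 4930509E16Rik, a noncoding RNA, had log2 ratios of 1.27, 0.51, 1.15 and 0.85 on the DMSO, FGFR, MEK and GSK arrays, and Cy3 signals of 604, 314, 573 and 475. Its log2 fold change with the FGFR inhibitor was -0.76, and -1.11 in the processed signals. Them6 (4930572J05Rik), of the thioesterase superfamily, had -0.32, -0.97, -0.55 and -0.76, with Cy3 at 3202 on the DMSO array and 2141 on the FGFR array. Both were lowest with the FGFR inhibitor in both ratio and Cy3. 1700025H01Rik had -0.03, -0.81, -0.57 and -0.15, yet its Cy3 signal was 63.3 with DMSO and 68.5 with the FGFR inhibitor while its Cy5 signal was 89.3 and 236. Its lower ratio thus came with a higher reference signal, although the reference RNA is 1 pool for all arrays, and its log2 fold change was -0.78, with -0.10 from Cy3 alone and -1.29 from the processed signals. 1700029J07Rik had -2.07 with DMSO and -2.68 with the FGFR inhibitor, and its log2 fold change of -0.61 fell short of 1.5-fold from Cy3 alone at -0.41 and under median centring at -0.57. Them6 fell just short under median centring, at -0.58. Timm21 (1700034H14Rik), of the mitochondrial import machinery, came next among genes of 1 direction in processed signals and in Cy3 alone, with -0.54, from -0.10 to -0.64, at a Cy3 signal of 18771 with DMSO and 14167 with the FGFR inhibitor.

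With the MEK inhibitor, too, 0 of 442 members were 2-fold higher and 0 lower, where 0.081% of other Rik symbols were higher and 0% lower and 0.0431% of 16226 genes were higher and 0.0431% lower. Past 1.5-fold, 2 members were higher (0.452%) and 1 lower (0.226%), against 0.486% and 0.324% of other Rik symbols and 0.604% and 0.475% of all genes. In the processed signals 8 members were 2-fold higher and 8 lower, 3.62% in all, against 1.13% of other Rik symbols and 1.32% of all genes. From Cy3 alone 0 were higher and 0 lower, against 0% and 0.074%. The members' share was thus near both backgrounds with the offset and from Cy3 alone, and above both in the processed signals. Processed signals carry no offset, and the members' probes were dimmer. The median processed Cy3 with DMSO was 165, against 971 for other Rik symbols and 1214 for all genes. The lists were not matched for signal, so no excess particular to the members is read from this. Past 1.5-fold after the offset, the higher ones were Lrriq4, with the turn of direction given above, and 4930432J01Rik. The latter had log2 ratios of 0.76, 1.13, 1.41 and 1.07 at Cy3 signals of 140, 186, 259 and 207 and a Cy5 signal at background. Its log2 fold change was 0.65, with 1.22 from processed signals, and it fell short of 1.5-fold with 0.36 from Cy3 alone and 0.51 under median centring. The lower one was 1700097N02Rik, with a log2 fold change of -0.61, and -0.42 under median centring, short of 1.5-fold. Among genes of 1 direction in processed signals and in Cy3 alone, the next higher values were those of Fam83e (4930403C10Rik) with 0.56, Spata31d1a with 0.46 and the noncoding RNA 4933438K21Rik with 0.44. The next lower values were those of 1700025H01Rik with -0.54, then 1700013F07Rik and the thymosin gene Tmsb15a (1700129I15Rik) with -0.45 each, and 4930430F08Rik with -0.39. Those 7 stayed within 1.5-fold after the background offset. In the processed signals Tmsb15a at -1.40, 4933438K21Rik at 1.17 and 1700025H01Rik at -1.03 were past 2-fold, and Fam83e at 0.85 and 1700013F07Rik at -0.74 past 1.5-fold. From Cy3 alone the lower ones were nearer 0, with Tmsb15a and 4930430F08Rik at -0.25, 1700025H01Rik at -0.16 and 1700013F07Rik at -0.04. The Cy5 signal of 1700013F07Rik was 246 with DMSO and 359 with the MEK inhibitor.

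With the GSK inhibitor 3 members rose 2-fold (0.679%) and 0 fell after the background offset, where 0.648% of other Rik symbols were higher and 0.162% lower and 0.684% of 16225 genes were higher and 0.752% lower. The members' share higher was thus near that of both backgrounds. In the processed signals 14 were higher and 6 lower, 4.52% in all against 4.54% of other Rik symbols and 4.49% of all genes. From Cy3 alone 3 were higher and 2 lower, 1.13% against 1.62% and 1.88%. Past 1.5-fold, 10 members were higher (2.26%) and 3 lower (0.679%), against 2.76% and 2.76% of other Rik symbols and 3.03% and 3.58% of all genes. The median log2 fold change was 0.02, and single members ran from -0.89 to 2.33. The robust SD among genes of like signal had a median of 0.24 over the members.

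Ct55 (4930502E18Rik), an X-linked cancer/testis antigen gene normally active in male germ cells, rose most. Its log2 ratio was -0.05 with DMSO, 0.07 with the FGFR inhibitor, -0.12 with the MEK inhibitor and 2.28 with the GSK inhibitor. Its processed Cy3 signal was 61.7, 64.0, 65.9 and 871 on those arrays, and its Cy5 signal was 73.7, 60.4, 80.5 and 62.3, so 3 arrays lay close to background and the GSK array alone was high. The log2 fold change was 2.33 after the background offset, 1.93 from Cy3 alone and 4.06 from the processed signals, and its size therefore depends on how a signal near background is treated. The smallest of its Cy3 signals was 2.53 background SDs above background. The neighbouring X-linked testis-library symbol 1700013H16Rik did not pass the filter.

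1700097N02Rik, a noncoding RNA on chromosome 17 between Glo1 and the dynein gene Dnah8, rose next, and it was bright on all arrays. Its log2 ratio was 0.81 with DMSO, 0.37 with the FGFR inhibitor, 0.20 with the MEK inhibitor and 2.68 with the GSK inhibitor, at processed Cy3 signals of 7278, 5777, 5225 and 28094. The reference signal of its probe stayed between 3689 and 4004. The GSK array was the high one and the MEK array the low one. Its log2 fold changes were -0.44, -0.61 and 1.87, and for the GSK inhibitor Cy3 alone gave 1.87 and the processed signals 1.86. The robust SD among genes of like signal was 0.20, 0.15 and 0.27 for the 3 inhibitors. Its rise with the GSK inhibitor is thus nearly the same with and without the offset.

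Smkr-ps (1700023L04Rik), annotated as a noncoding RNA next to the transcription factor gene Nrf1 on chromosome 6, was the third to rise. Its log2 ratio was 0.01, 0.00, 0.18 and 1.07 on the DMSO, FGFR, MEK and GSK arrays, with Cy3 signals of 46.3, 46.8, 57.2 and 278. The fold change of 1.05 is just past 2-fold. It was 1.52 with an offset of 16 and 2.15 from the processed signals, while from Cy3 alone it was 0.93 and with median centring 0.73, both short of 2-fold. Like Ct55, it was close to background on the other arrays.

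**Figure D2:**
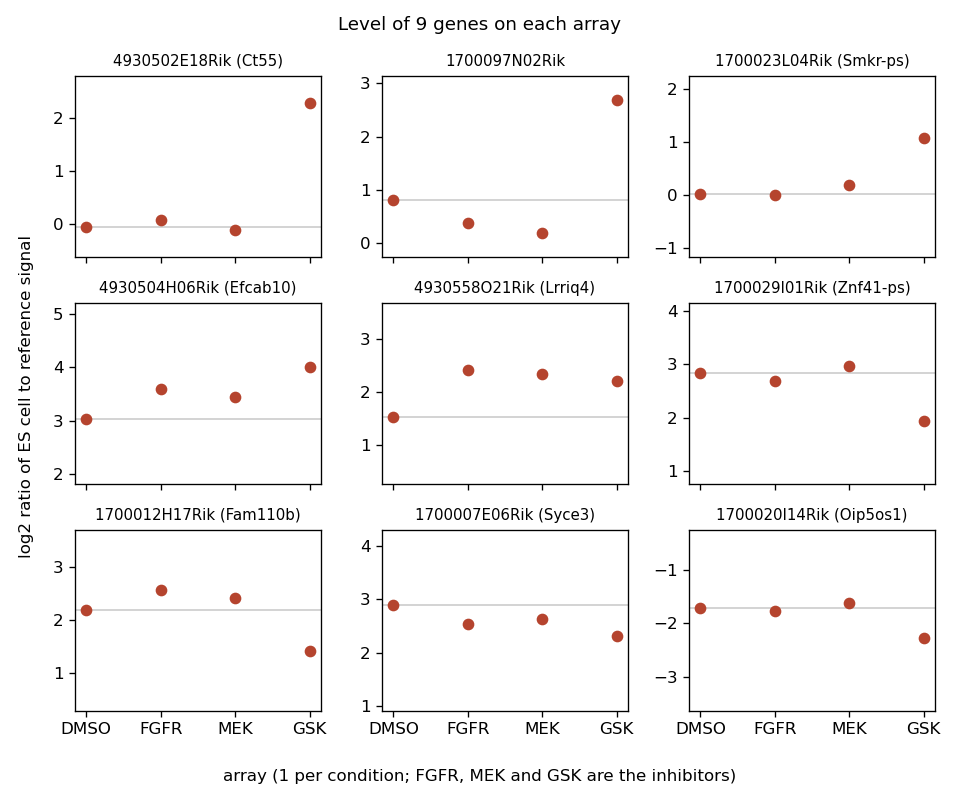
Log2 ratio of ES cell to reference signal of 9 testis-library RIKEN genes on the DMSO, FGFR inhibitor, MEK inhibitor and GSK inhibitor arrays, 1 point per array, with a grey line at the DMSO value and axes of equal span. The GSK array is the high one for Ct55 (2.28), 1700097N02Rik (2.68) and Smkr-ps (1.07) and the low one for Znf41-ps (1.94) and Fam110b (1.42). For Lrriq4 the DMSO array is the low one (1.54), as it is in the processed Cy3 signal. In the ratio of the software's processed signals it is not, over a Cy5 signal at background.

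The probe sequences of some of the noncoding members that stood out are shown because they say which stretch of each RNA was measured. They are the 60-base probes of the array, and the capitals that mark motifs elsewhere are not used here. Those of 1700018G05Rik and 1700025H01Rik, noncoding members that were also past 1.5-fold with the FGFR inhibitor, are among those not shown. The probe of 1700097N02Rik, with 56.7% GC, read the RNA that went from 0.81 with DMSO to 2.68 with the GSK inhibitor. The probe of Smkr-ps, with 41.7% GC, read 0.01 and 1.07, and that of 1700042O10Rik, with 45.0% GC, read 0.76 with DMSO and 1.45 with the FGFR inhibitor. The probe of 4930509E16Rik, with 35.0% GC, read 1.27 with DMSO and 0.51 with the FGFR inhibitor.
1700097N02Rik: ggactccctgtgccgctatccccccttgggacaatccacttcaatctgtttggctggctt
Smkr-ps: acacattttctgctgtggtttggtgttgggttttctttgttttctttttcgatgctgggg
1700042O10Rik: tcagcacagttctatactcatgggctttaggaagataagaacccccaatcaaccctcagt
4930509E16Rik: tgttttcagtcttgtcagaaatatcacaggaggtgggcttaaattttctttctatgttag

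Since GSK-3 inhibition stabilizes beta-catenin, which binds DNA through TCF and LEF factors, the RefSeq promoter windows of the 3 members that rose were searched on both strands for CTTTGAA and for CTTTGAT, and likewise for CTTTGTT and for CTTTGTA. The 4 share their first 5 bases and differ in the rest, so no pair of them can start at the same base of a strand. The window of 1700097N02Rik, chr17:30626856-30627155 on the minus strand of GRCm38.p6, holds TACAAAG at position -32 and TTCAAAG at position 5 from its annotated start, the other-strand forms of CTTTGTA and CTTTGAA. Both lie in a stretch of 31 bases that recurs in the window with 30 equal bases, first from position -45 and again from position -8. The windows of Ct55 and Smkr-ps hold none of the 4. Among 32851 promoter windows of the same length, 5.14% hold CTTTGAA, 3.73% CTTTGAT, 5.85% CTTTGTT and 3.63% CTTTGTA, and 16.9% hold any of them, so a match is common and is only a description of these letters. The window is printed 5′ to 3′ with the matches in capitals.
1700097N02Rik promoter: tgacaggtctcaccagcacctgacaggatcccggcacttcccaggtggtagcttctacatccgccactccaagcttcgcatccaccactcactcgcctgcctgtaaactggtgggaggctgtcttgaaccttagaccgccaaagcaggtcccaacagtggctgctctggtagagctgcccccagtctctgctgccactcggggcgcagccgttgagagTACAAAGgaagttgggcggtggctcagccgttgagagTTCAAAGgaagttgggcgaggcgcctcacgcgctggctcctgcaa

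Between 1.5-fold and 2-fold higher with the GSK inhibitor were 7 members. Efcab10 came closest to 2-fold, with log2 ratios of 3.02 with DMSO, 3.60 with the FGFR inhibitor, 3.45 with the MEK inhibitor and 4.00 with the GSK inhibitor, at Cy3 signals of 1005, 1551, 1443 and 2299. Its reference signal was at background on every array, and its log2 fold change was 0.98, with 0.96 from Cy3 alone. 1700066B19Rik had -1.51, -1.69, -1.62 and -0.86, at Cy3 signals of 68.8, 68.1, 88.0 and 287. Like the members that rose 2-fold, both were highest on the GSK array. Shtn1 (4930506M07Rik), which acts in axon outgrowth, had -3.49 with DMSO and -2.85 with the GSK inhibitor, 1700016D02Rik -2.83 and -2.22, 4930503E14Rik -3.61 and -3.01, and 1700028I16Rik 0.71 and 1.32. The Cy5 signal of 1700028I16Rik was above background on no array, so the offset sets the size of its ratio. Lrriq4 completes the group, with the direction that turns in the ratio of processed signals and with 0.50 under median centring. The group depends on the setting, since in the processed signals 1700066B19Rik at 1.90 and Efcab10 at 1.19 were past 2-fold and 1700028I16Rik at 0.22 fell short of 1.5-fold. From Cy3 alone Shtn1 at 1.00 was past 2-fold, and 1700028I16Rik at 0.46 and 4930503E14Rik at 0.49 fell short of 1.5-fold. Shtn1, 1700016D02Rik, 4930503E14Rik and 1700028I16Rik are named because they complete the count, and were chosen after their values were seen.

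Lower than DMSO by 1.5-fold with the GSK inhibitor were Znf41-ps, Fam110b and 1700028E11Rik, and all 3 stood well above the reference in control cells. Znf41-ps (1700029I01Rik), a transcribed pseudogene of a zinc-finger gene, had log2 ratios of 2.83, 2.69, 2.97 and 1.94 on the DMSO, FGFR, MEK and GSK arrays, at Cy3 signals of 2131, 1827, 2395 and 867. Its log2 fold change was -0.89, and from Cy3 alone it was -1.20, past 2-fold. Fam110b (1700012H17Rik), of a family of centrosome proteins, had 2.19, 2.57, 2.41 and 1.42, at Cy3 signals of 1103, 1593, 1477 and 590. In both genes the GSK array was the low one. 1700028E11Rik had 2.00, 2.11, 2.03 and 1.38, and its log2 fold change of -0.63 fell short of 1.5-fold from Cy3 alone at -0.41 and under median centring at -0.57.

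Syce3 and Catsperz, which were far above the reference in control cells, had their lowest ratio on the GSK array without passing 1.5-fold. Syce3 had a log2 fold change of -0.58, yet from Cy3 alone it had -0.53 with the GSK inhibitor and -0.61 with the FGFR inhibitor, and its Cy3 signal was lowest with the latter at 699, against 737. Catsperz from Cy3 alone had -0.75 with the FGFR inhibitor, past 1.5-fold. With the GSK inhibitor Catsperz had -0.56, with -1.17 from Cy3 alone and -0.28 from the processed signals, as its Cy5 signal was 299 with DMSO and 164 with the GSK inhibitor. Mael, read here as a marker and not a member, was past 1.5-fold lower at -0.68, with -0.83 from Cy3 alone. With the FGFR inhibitor Mael had -0.61 from Cy3 alone. The ratio of its processed signals gave 0.07 with the GSK inhibitor. Its processed Cy3 signal was 1399 with DMSO and 735 with the GSK inhibitor, and its dim Cy5 signal was 35.4 and 17.7. Rhox13 had its highest ratio on the GSK array, with a log2 fold change of 0.22 beside a robust SD of 0.19. Oip5os1 had a log2 fold change of -0.56 with this inhibitor at Cy3 signals of 6940 with DMSO and 4823 with the inhibitor, and -0.06 and 0.09 with the others. Mtres1 (1700021F05Rik), a mitochondrial RNA-binding protein, had -0.55, with -0.30 from Cy3 alone, at a Cy3 signal of 24683 with DMSO. The Cy5 signal of Mtres1 was 17440 with DMSO and 21239 with the GSK inhibitor. Cfap20dc had 0.57, with 0.50 from Cy3 alone. After the background offset, Ct55 was the only gene of the role groups past 2-fold with any inhibitor. In the processed signals others passed it, among them Cfap206 with every inhibitor, at 2.79 for FGFR and 2.99 for GSK, Rsph9 with 1.29, Tex26 with 1.24, Prss44 with -1.44 and Ovol2 with -1.38 for the FGFR inhibitor, and Izumo2 with -1.04 for the GSK inhibitor. Cfap206 had Cy5 above background on 1 array and Izumo2 on none, so the size of their processed values rests on a reference near background. From Cy3 alone Cfap206 had 0.29, 0.06 and 0.18 with the FGFR, MEK and GSK inhibitors.

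**Figure D3:**
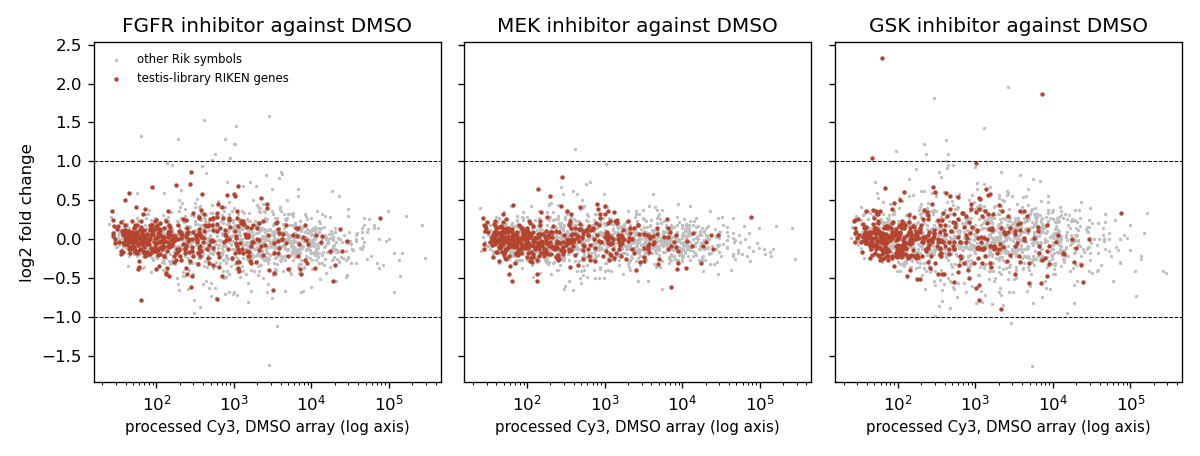
Log2 fold change of each inhibitor array against the DMSO array, by the processed Cy3 signal of the gene on the DMSO array on a log axis, for the 442 testis-library RIKEN genes (red) and the 1234 other Rik symbols (grey), with dashed lines at 2-fold. With the FGFR and MEK inhibitors no red point passes a dashed line, and with the GSK inhibitor 3 do, at 2.33, 1.87 and 1.05.

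Changes past 1.5-fold were counted by Cy3 signal within the set alone. Without the same counts by signal for the other Rik symbols, nothing particular to the members is read from them. With the GSK inhibitor 0 of the 111 members with the lowest Cy3 signal were past 1.5-fold in either direction, against 4 of the next 110, 3 of the 110 after them and 6 of the 111 with the highest. For the FGFR inhibitor the counts in the same order were 2, 1, 5 and 2, and for the MEK inhibitor 0, 1, 1 and 1. Robust SDs of the members' own log2 fold changes in the same order were 0.11, 0.15, 0.21 and 0.23 with the FGFR inhibitor, 0.13, 0.12, 0.15 and 0.16 with the MEK inhibitor and 0.13, 0.17, 0.20 and 0.27 with the GSK inhibitor. The offset added to both channels draws the ratios of dim probes together, and its part in these counts and SDs was not tested. In the processed signals, which have no offset, 18 members (4.07%) were past 2-fold with the FGFR inhibitor, 16 (3.62%) with the MEK inhibitor and 20 (4.52%) with the GSK inhibitor. The other Rik symbols then had 2.92%, 1.13% and 4.54%, and all genes 4.07%, 1.32% and 4.49%. By type, the protein-coding members past 1.5-fold with the GSK inhibitor were 6 higher and 1 lower of 239, beside 24 and 27 of 876 among other Rik symbols. The noncoding members were 3 higher and 0 lower of 135, beside 7 and 4 of 205. By library, 5 of 225 members named like 1700097N02Rik and 5 of 161 named like 4930502E18Rik were higher, and 0 of 56 named like 4933438K21Rik, beside 2.76% of the other Rik symbols. Among the 17 X-linked members Ct55 was the only one past 1.5-fold with this inhibitor, beside 0 higher and 1 lower of 34 among X-linked other Rik symbols. With the FGFR inhibitor 1 was higher, 1700018G05Rik, and 0 lower, beside 0 higher and 4 lower of those 34, and with the MEK inhibitor none was in either list.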

How the data were processed

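ES cell RNA (Cy3) and reference RNA (Cy5) were read in 4 samples, 1 array each. Per the file headers, the scanned intensity values are the output of Agilent Feature Extraction 9.5.1.1, and other columns hold its flags and spot statistics as deposited. The authors also deposited a table of log10 values, used only as an alternative. Mean signals were background corrected in limma 3.58.1 (R 4.3.3) by normexp with an offset of 50, and normalized within arrays by loess with control spots at weight 0, after outlier spots were left out. The steps were tested on simulated data. Offsets shrink ratios of dim probes. Symbols were joined to probes by probe name, and current symbols, gene types and promoters came from RefSeq. With 1 array per condition no test was run, and genes past 2-fold or 1.5-fold were counted beside other Rik symbols and all genes passing the filter. Signal over background is the depth here, and 4 arrays give no error per gene. Named genes were the 3 marker transcripts, members past 2-fold, the 5 largest rises and falls per inhibitor with 1 direction in processed signals and Cy3 alone, the 5 highest and lowest by ratio, the 3 on each side of the filter and the 3 steadiest bright members. Genes given by role, and those completing a small count, were chosen after their values were seen. The members and lists were chosen with earlier results of these data known. As alternatives, the offset was set to 16, background was not subtracted, and values came from processed signals, median centring, Aquantile, Cy3 alone, the deposited table, both channels above background, 1.5-fold and 4-fold, and added prefixes. Protein length and the place of probes in proteins are not analysed here.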

Additional observations from a re-analysis of the deposited data

How the results depend on the processing

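The number of members past 2-fold with the FGFR inhibitor, 0 as reported, was 1 with an offset of 16, 18 from processed signals, 18 from the deposited table, 1 with the prefixes added and 10 at 1.5-fold. With the MEK inhibitor, 0 as reported, it was 16 from processed signals, 16 from the deposited table and 3 at 1.5-fold. With the GSK inhibitor, 3 as reported, it was 20 from processed signals, 20 from the deposited table, 5 from Cy3 alone, 13 at 1.5-fold and 1 at 4-fold. Processed signals carry no offset, and under them the share past 2-fold was 4.07% of members, 2.92% of other Rik symbols and 4.07% of all genes with the FGFR inhibitor, 3.62%, 1.13% and 1.32% with the MEK inhibitor, and 4.52%, 4.54% and 4.49% with the GSK inhibitor. The same 3 genes passed with the offset of 16, without background subtraction and from processed signals, and 2 of them did with median centring and from Cy3 alone. Median centring moved the members' median ratio to the reference from 0.04 to -0.26 and the median change of all genes with the MEK inhibitor to 0.11. Requiring both channels above background lowered the share passing from 45.0% to 40.5%. Of 129 values of named genes, 17 had the opposite sign from Cy3 alone, 14 from processed signals and 7 with median centring. Aquantile leaves log ratios as they are, so it tested nothing here. The ratio to the reference has no value from Cy3 alone or the deposited table, and the other thresholds apply to the counts alone. No paired analysis was possible because there is 1 array per condition. Signals near background limit the dim members, for which the size of a change depends on the offset.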
